A study of Mus musculus with 14 samples.

Results

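Transverse aortic constriction (TAC) places a narrowing on the aortic arch, so that the left ventricle must pump against a higher pressure. The comparison described here is TAC against sham surgery in hearts that had received a control virus: the 4 TAC+GFP and 3 Sham+GFP libraries, chosen by the surgery and virus in their labels, 7 of the 14 libraries of the study. All came from the ventricles of male C57BL/6N mice operated at 9 to 10 weeks of age. 2 weeks after surgery, TAC mice with an ejection fraction of 40% to 60% and sham mice with normal function were kept (30 and 10 mice), so the TAC group holds hearts of moderate dysfunction by selection. Both groups then received the same tail vein dose of AAV2/9, an adeno-associated virus that reaches the heart, carrying green fluorescent protein (GFP), 1e12 viral genomes in 100 ul, and tissue was taken 6 weeks later, 8 weeks after surgery. Every heart compared therefore carries a virus, and the labels do not state a promoter for GFP, nor which mouse gave which library. The other 7 libraries came from hearts given a virus for JP2NT, an N-terminal fragment of the junctional membrane protein junctophilin-2, and are used only in the last comparison. Polyadenylated RNA was sequenced, so the values describe messenger RNA of the whole ventricular wall, in which fewer cells of a type and less RNA per cell cannot be told apart.

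Under pressure overload, cardiomyocytes enlarge and return to part of the gene programme of the fetal heart. Stretch, calcium and hormone signals reach transcription factors in the muscle cell, and muscle cells, fibroblasts, endothelium and immune cells exchange secreted factors that set growth, matrix deposition and vessel supply. The natriuretic peptides, collagens and fatty acid enzymes are the textbook readouts of this state. The description below concerns the remainder of the transcriptome: what fills the library, and which families of transcription factors, secreted factors, receptors, cytoskeletal proteins and transporters moved.

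Values are the deposited normalised read counts of each gene. They are scaled and not whole. The commonest low value of a library, taken as 1 read, was 0.861 to 1.22 units in the 7 libraries. By it they held an estimated 9773009 to 13648521 gene-assigned reads. Only 1.23% to 1.91% of the values above 0 were whole multiples of it to within 0.001, so a single factor per library does not describe them. Differences are of log2(value + 1), TAC minus sham, with the standard error (SE) of a limma fit over the 12925 genes that reached a value of 10 in 3 or more of the 7 libraries. A gene is written as having risen or fallen where its Benjamini-Hochberg adjusted p over all of them was under 0.05. By that rule 6461 genes (50%) differed, 3217 higher (24.9%) and 3244 lower (25.1%) in TAC hearts. When libraries were instead scaled to the same summed value, the split became 3942 higher and 2508 lower (61.1% and 38.9% of those called), with a median difference over all genes of 0.08. A further threshold of a 2-fold difference left 820 genes higher (6.34%) and 373 lower (2.89%). The background for a family is therefore high, and its counts are read against these shares. Without Sham+GFP replicate 1, 2 or 3, fewer genes were called in all: 2772, 2630 and 2721 higher and 2626, 2475 and 2606 lower. Family counts for those fits are read against these. The groups did not overlap for 53.8% of the genes tested. Most genes named below were chosen among these, so a lack of overlap in them follows from the choice. The labels do not tie libraries to separate animals, so p-values measure only the spread between these libraries. Along the first principal component (65.8% of the variance) the sham libraries lay at -44.4 to -43.3 and the TAC libraries at 27.7 to 40.3. Replicate 3 of TAC+GFP stood apart on the second component (10.3% of the variance, -31.4 against -4.15 to 18.7) and replicate 4 on the third (9.00%, -32.4 against 4.80 to 13.3). Values of single libraries are given in the order of their replicate numbers.

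The genes with the steepest differences outside the families are shown first, with promoter sequence for 4 of them. Star, which carries cholesterol into mitochondria for steroid synthesis, had values of 9.12, 8.63 and 10.2 in the sham libraries and 346, 437, 209 and 257 in the TAC libraries (log2 difference 4.87 ± 0.23, adjusted p = 3.43e-07). Dio2, the type 2 deiodinase that converts thyroxine to active thyroid hormone, had 17.2, 13.5 and 14.4 in the sham libraries and 265, 307, 242 and 310.1 in the TAC libraries (4.14 ± 0.15, adjusted p = 3.38e-08). For both genes the lowest TAC value was many times the highest sham value. Synpo2l, an actin-associated protein of the cardiomyocyte Z-disc, rose from 2096, 2137 and 2134 to 12276, 13489.9, 9260.0 and 13241 (2.49 ± 0.11, adjusted p = 2.32e-07). Mylk4, a myosin light chain kinase of striated muscle, fell from 4532, 4482 and 4604 to 1069, 1180.0, 1049.8 and 1134 (-2.03 ± 0.06, adjusted p = 2.43e-08) and varied little within either group. The 250 bases before the RefSeq start of Dio2, of Sphk1 (sphingosine kinase 1, 2.34 ± 0.33), of Synpo2l and of Mylk4 are printed because they hold a match to a motif that is known from muscle or signal-responsive promoters. They were chosen, after the matches were seen, from the 22 genes with a RefSeq promoter among the steepest genes outside the families. Of the 10 that rose, 2 hold the M-CAT core, 1 the cyclic AMP response element and 1 the MEF2 consensus, and of the 12 that fell 1 holds each of them. Pdp2, which fell, holds the M-CAT core and 2210407C18Rik, which also fell, the cyclic AMP response element, and their windows are not printed. The printed windows are on GRCm38.p6, read 5′ to 3′ on the strand of the gene: Dio2 at chr12:90739039-90739288 (minus strand), Sphk1 at chr11:116530850-116531099 (plus), Synpo2l at chr14:20668355-20668604 (minus) and Mylk4 at chr13:32783965-32784214 (minus). Capitals mark the cyclic AMP response element TGACGTCA and the M-CAT core CATTCC (here on the opposite strand) in Dio2, the M-CAT core on the opposite strand in Sphk1, and the MEF2 consensus in Synpo2l and Mylk4.
Dio2: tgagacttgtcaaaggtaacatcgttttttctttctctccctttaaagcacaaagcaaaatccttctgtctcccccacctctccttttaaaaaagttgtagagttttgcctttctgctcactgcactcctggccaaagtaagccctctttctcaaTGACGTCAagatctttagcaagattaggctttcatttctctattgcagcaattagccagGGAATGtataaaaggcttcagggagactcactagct
Sphk1: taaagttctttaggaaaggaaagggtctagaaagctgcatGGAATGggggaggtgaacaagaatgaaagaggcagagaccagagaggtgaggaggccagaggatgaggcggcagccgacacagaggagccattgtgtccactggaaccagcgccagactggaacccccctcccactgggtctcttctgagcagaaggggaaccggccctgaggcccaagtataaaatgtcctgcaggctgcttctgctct
Synpo2l: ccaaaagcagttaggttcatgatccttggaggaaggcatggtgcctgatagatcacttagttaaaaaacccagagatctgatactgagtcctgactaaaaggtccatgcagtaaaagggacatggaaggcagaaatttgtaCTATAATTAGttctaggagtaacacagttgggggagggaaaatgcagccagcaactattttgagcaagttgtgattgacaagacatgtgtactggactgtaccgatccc
Mylk4: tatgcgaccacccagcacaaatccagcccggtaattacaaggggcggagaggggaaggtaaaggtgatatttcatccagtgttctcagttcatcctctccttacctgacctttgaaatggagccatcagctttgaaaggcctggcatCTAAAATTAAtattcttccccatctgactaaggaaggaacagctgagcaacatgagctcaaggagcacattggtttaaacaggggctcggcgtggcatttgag

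A match describes letters and does not mark a binding site. Of 27025 promoters of this length, searched on both strands, 12.6% hold the M-CAT core CATTCC, 1.62% TGACGTCA, 3.01% the MEF2 consensus and 4.43% the AP-1 site TGACTCA, and no one of these motifs lies inside another. Among the 10160 promoters of genes tested, the M-CAT core was in 10.7%, against 13.1% of the 603 promoters of genes that rose at least 2-fold and 17.0% of the 271 of genes that fell at least 2-fold. The AP-1 site was in 2.97% of promoters of genes tested, in 5.64% of those at least 2-fold higher and in 2.21% of those at least 2-fold lower. TGACGTCA was in 2.72%, 2.49% and 0.738% of the same sets. The MEF2 consensus was in 1.77%, 2.16% and 2.95% of them, and of the pair shown with it Synpo2l rose and Mylk4 fell.

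More genes outside the families moved in the same steep way. Mob1b, an activator of the LATS kinases of the Hippo pathway, had values of 35.5, 27.2 and 27.4 in the sham libraries and 263, 374, 283 and 216 in the TAC libraries (3.18 ± 0.18). Nlrc3, an innate immune sensor of the NOD-like receptor family, had 47.3, 55.3 and 30.1 in the sham libraries and 397, 381, 394 and 329 in the TAC libraries (3.10 ± 0.18). Xpo4, a nuclear transport receptor, had 10.1, 14.9 and 14.4 in the sham libraries and 89.4, 122, 116 and 119 in the TAC libraries (2.998 ± 0.20). Each of the 3 was several times higher in every TAC library than in any sham library. The stress-induced nuclear protein gene Nupr1 (2.75 ± 0.14), the integrin-related Itgbl1 (2.36 ± 0.17) and Spp1, which encodes osteopontin (3.35 ± 0.45), also rose, with no overlap between the groups. Among the genes that fell, Acot1, a cytosolic acyl-CoA thioesterase with close copies, went from 288, 292 and 339 to 47.8, 43.3, 15.7 and 45.1 (-3.09 ± 0.32). Ces1d, a carboxylesterase with lipase activity, fell from 1425, 1734 and 1838 to 294, 180.3, 232 and 356 (-2.68 ± 0.19). For Acot1 replicate 3 was the lowest TAC library, and for Ces1d the TAC libraries lay closer together. Ucp3, an inner membrane carrier of muscle mitochondria (-2.46 ± 0.29), the scaffold protein whirlin, Whrn (-2.20 ± 0.14), Pfkfb1, which sets the level of the glycolytic activator fructose 2,6-bisphosphate (-2.23 ± 0.14), and Pdp2, a phosphatase that activates pyruvate dehydrogenase (-1.98 ± 0.11), fell too.

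What fills the library changed with overload. The 10 most abundant genes of each library took 14.6% ± 0.0766 (SD, n = 3) of the sham total and 10.4% ± 0.379 (SD, n = 4) of the TAC total, a difference of -4.22 percentage points (two-sided exact permutation test, p = 0.0286, the smallest that 4 against 3 libraries allow, and 0.031 adjusted over 13 shares). Shares of reads depend on transcript length as well as on the number of molecules. Myh6, the fast myosin heavy chain of the adult mouse ventricle, alone went from 4.09% to 1.56% of the total, Atp2a2, which pumps calcium back into the sarcoplasmic reticulum, from 2.10% to 1.05%, and the cardiac actin gene Actc1 from 1.94% to 1.38%. Gains were spread over more genes: Myh7, the slow myosin, by 0.752 percentage points, Nppa, a natriuretic peptide, by 0.698, the stretch-responsive Ankrd1 by 0.549, skeletal actin Acta1 by 0.426, Xirp2, an actin-binding protein of the intercalated disc, by 0.29, Hbb-b1, a beta globin, by 0.235, and titin, Ttn, by 0.181. Contractile proteins as a list of 28 genes took 15.7% ± 0.126 (SD, n = 3) of the sham total and 12.8% ± 0.322 (SD, n = 4) of the TAC total (exact permutation p = 0.0286), while members moved both ways: 7 of 27 tested rose and 8 fell. The 3 natriuretic peptide genes went from 0.0747% to 1.03% and collagens and matrix glycoproteins from 0.429% to 0.95%. Without Myh6 and Myh7 in the total, a setting added after the data were seen, the 10 most abundant genes still lost 2.12 percentage points.

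**Figure D1:**
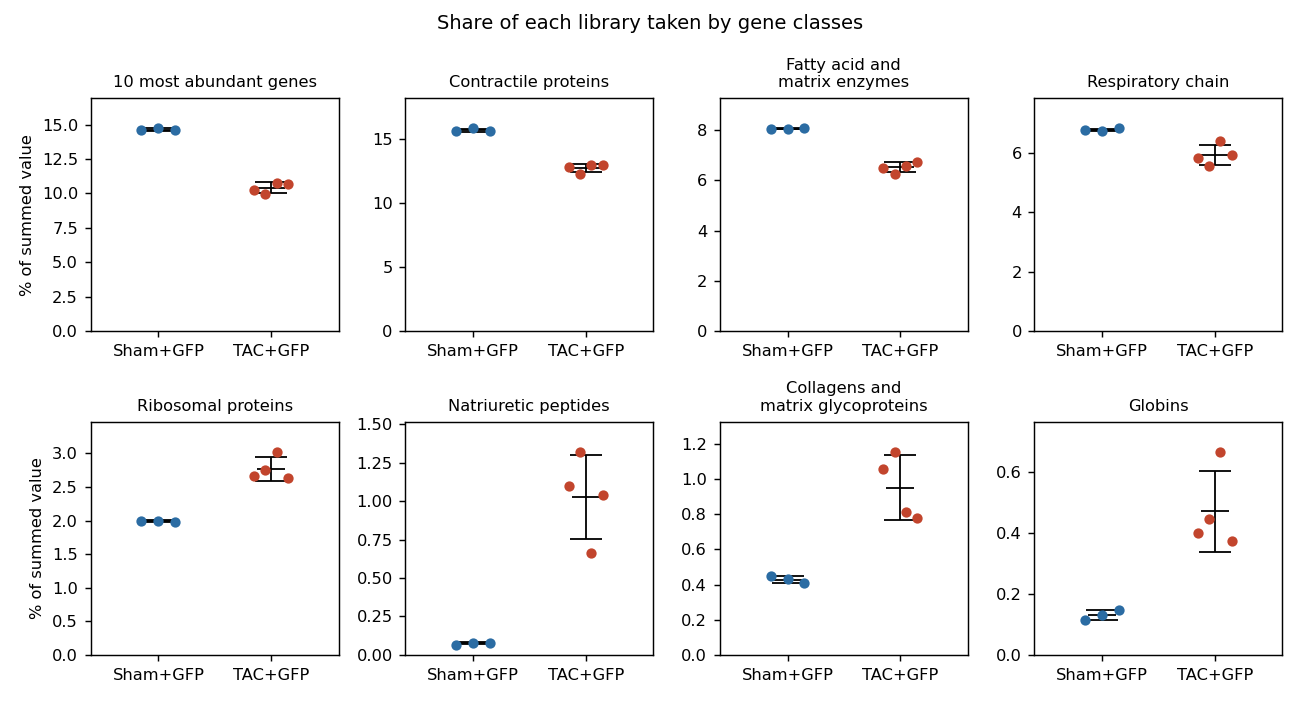
Share of the summed value of each library (percent, y axis from 0) taken by 8 gene classes in the 3 Sham+GFP (blue) and 4 TAC+GFP (red) libraries; points are libraries, bars the mean and SD. The groups do not overlap in any of the 8 panels, and TAC+GFP replicate 3 is the highest TAC library for ribosomal proteins and globins and the lowest for natriuretic peptides. The exact permutation p was 0.0571 for the respiratory chain and 0.0286 for each of the others.

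Some of the most abundant transcripts hardly moved. Among the 200 most abundant genes, those nearest to no change included Fabp3, the heart fatty acid-binding protein, with 56533, 54646 and 54016 in the sham libraries and 58645, 55971, 48383 and 57389 in the TAC libraries (adjusted p = 0.978). Tnnc1, cardiac troponin C, had 37313, 35029.9 and 34999 in the sham libraries and 37488, 36334, 35998 and 35886 in the TAC libraries (adjusted p = 0.726). Eif4g2, a translation initiation factor, had 12729.9, 12794 and 12771 in the sham libraries and 12519, 12874, 12740.5 and 12792 in the TAC libraries (adjusted p = 0.953). The 7 libraries were nearly level for Eif4g2. Myoglobin, Mb, which binds oxygen, had 187272, 178795 and 175737 in the sham libraries and 169202, 166666, 184379 and 186702 in the TAC libraries (-0.03 ± 0.08, adjusted p = 0.749). These 4 genes overlapped between groups on the scale of the deposited table, and a p above the threshold does not show that their levels were the same.

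Cytosolic ribosomal protein genes rose together, mostly by less than 2-fold. Of 77 tested, 61 rose (3 at least 2-fold) and 2 fell, with a median difference of 0.36 and as a class they took 1.99% ± 0.0123 (SD, n = 3) of the sham total and 2.77% ± 0.177 (SD, n = 4) of the TAC total. Rpl13a had 4553, 4496 and 4537 in the sham libraries and 9334, 10017, 12604 and 8503 in the TAC libraries (1.14 ± 0.11). Rpl41 had 3457, 3603 and 3267 in the sham libraries and 6343, 6539, 7995 and 6803 in the TAC libraries (1.002 ± 0.08). TAC+GFP replicate 3 was the highest library for both genes and held the highest share of the list. The 2 genes that fell were Rpl3l, a form of a large-subunit protein made in striated muscle, from 3403, 3478 and 3290.3 to 1395, 1129, 1749 and 1377 (-1.28 ± 0.12), and Rps2 (-0.36 ± 0.05). Ribosomal protein genes have many processed pseudogenes, between which reads can be split, and their transcripts are short, with a median length of 637 bases. The median difference of all genes tested was 0.02, -0.01, 0.01, -0.01 and 0.01 in the 5 length classes from shortest to longest, and the part of length in the ribosomal protein values was not tested. Respiratory chain genes had a median of -0.23, with 53 of 103 lower and 9 higher. Without Sham+GFP replicate 2 or 3, those higher were 4 and 5. As a class they went from 6.78% of the sham total to 5.93% of the TAC total, which did not pass 0.05 (exact permutation p = 0.0571). Elongation factor genes divided by form: Eef1a1, the form made in most cells, rose from 13627, 14268 and 14519 to 24024, 25994, 25152 and 22826 (0.79 ± 0.06). Eef1a2, the form of muscle and neurons, fell from 19848, 21174 and 19521 to 15948, 15156, 13255 and 15528 (-0.43 ± 0.07).

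**Figure D2:**
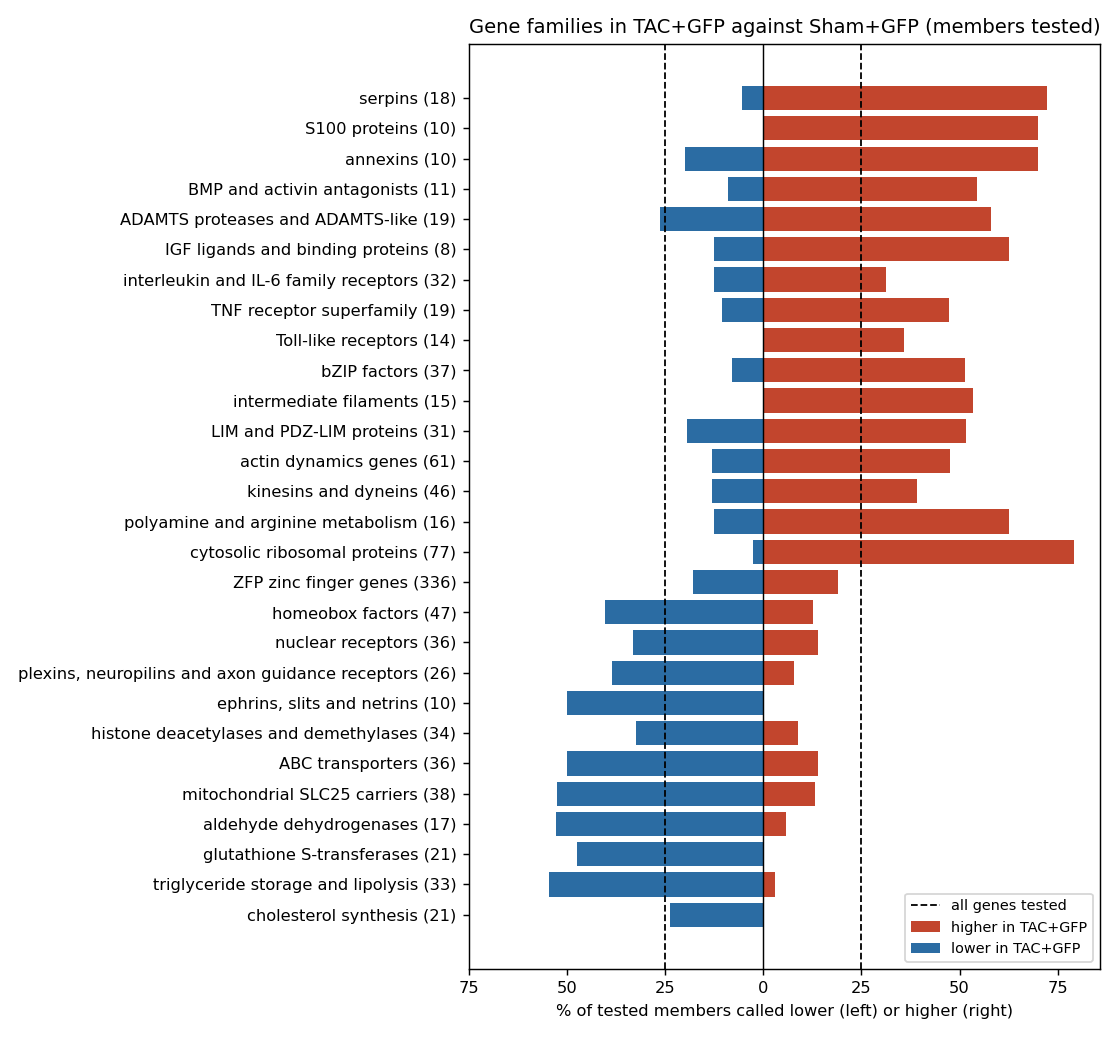
Percent of the tested members of 28 gene families that were lower (blue, left) or higher (red, right) in TAC+GFP than in Sham+GFP, with the number tested in parentheses. Dashed lines mark all genes tested (24.9% higher, 25.1% lower). The families shown were picked with their values known and do not stand for all families counted. Ribosomal proteins, serpins, S100 proteins and annexins reach furthest to the right, and triglyceride, mitochondrial carrier and aldehyde dehydrogenase genes furthest to the left.

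Transcription factors as a whole were called about as often as all genes, and the counts varied from family to family. Of 703 tested factors, 159 (22.6%) rose and 160 (22.8%) fell. The zinc finger genes of the Zfp series, the largest family, were below the background on both sides, with 64 of 336 higher and 60 lower. The basic leucine zipper factors, which include the AP-1 and ATF genes of acute stress signalling, mostly rose, 19 of 37, with 3 lower (5 without TAC+GFP replicate 3). Homeobox factors, which hold regional identity in the developing heart, went the other way, 6 of 47 higher and 19 lower. Of 36 nuclear receptors, 12 fell and 5 rose (3, 2 and 3 without Sham+GFP replicate 1, Sham+GFP replicate 2 and TAC+GFP replicate 2). Histone deacetylase and demethylase genes, which remove acetyl and methyl marks, had 11 of 34 lower and 3 higher. These are 32.4% and 8.82%, against 25.1% and 24.9% of all genes.

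Among the factors that rose, Egr2, an immediate-early zinc finger factor, had values of 4.87, 6.86 and 3.78 in the sham libraries and 96.2, 118, 24.9 and 91.9 in the TAC libraries (3.59 ± 0.47, adjusted p = 0.000119), with TAC+GFP replicate 3 well below the other TAC libraries. Atf3, a stress-induced leucine zipper factor, had 68.7, 82.6 and 51.8 in the sham libraries and 513, 625, 255 and 304 in the TAC libraries (2.56 ± 0.28). Cebpd, a factor of the inflammatory response, had 72.9, 74.8 and 63.5 in the sham libraries and 328, 292, 263 and 186 in the TAC libraries (1.88 ± 0.17). Replicates 1 and 2 were the higher TAC libraries for both genes, while no TAC value came near the sham values. Maff (1.83 ± 0.24), the NF-kappaB subunit gene Rel (1.65 ± 0.24) and Klf4 (1.30 ± 0.22) also rose. Scx, the scleraxis factor of tendon and matrix-forming fibroblasts, had 16.8, 30.5 and 27.8 in the sham libraries and 116, 94.1, 76.0 and 107 in the TAC libraries (1.96 ± 0.23). Meox1, a homeobox factor of activated fibroblasts, had 231, 214 and 187 in the sham libraries and 849, 766, 644 and 758 in the TAC libraries (1.84 ± 0.10). The TAC libraries lay close together for both. Tbx15, a T-box factor, went from 8.14, 6.17 and 11.99 to 50.2, 29.6, 43.4 and 55.2 (2.23 ± 0.30). Etv4, an ETS factor downstream of growth factor receptors, went from 5.21, 4.87 and 4.40 to 36.7, 28.2, 16.9 and 33.5 (2.30 ± 0.32). Both remained low even in TAC hearts. Of 14 T-box and GATA factors, 4 rose and 5 fell (3 fell without any of the Sham+GFP replicates). These are 28.6% and 35.7%, against 24.9% and 25.1% of all genes. Vgll2, a cofactor of the TEAD factors that bind the M-CAT element, was close to the detection limit in sham hearts, with 1.04, 2.45 and 0, and was at 26.9, 11.6, 70.4 and 23.3 in TAC hearts (3.86 ± 0.61). Zfp369 rose from 0, 2.49 and 0.853 to 44.8, 42.5, 52.5 and 34.4 (4.56 ± 0.43), the steepest rise among the Zfp genes. It has a close copy, between which reads can be split. For sham values this near to 0 the log2 difference depends on the added 1 and is no measure of fold. Zfp697 (1.80 ± 0.15), Zbtb38, a reader of methylated DNA (1.43 ± 0.12), and Mga, a partner of MAX (0.94 ± 0.11), rose as well.

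Fewer factors fell steeply than rose, as among all genes. At least 2-fold higher were 46 of the 703 factors and at least 2-fold lower 15, against 6.34% and 2.89% of all genes. Snai3, a Snail family repressor, went from 111, 96.2 and 109.7 to 18.01, 16.7, 9.58 and 17.3 (-2.73 ± 0.23, adjusted p = 7.75e-06). Irx1 and Irx2, homeobox factors of the ventricular septum and conduction system, fell by similar amounts. Irx1 went from 116, 95.4 and 119.8 to 28.4, 27.8, 48.8 and 68.9 (-1.42 ± 0.29). Irx2 went from 74.6, 72.7 and 76.8 to 27.0, 24.6, 21.1 and 35.8 (-1.46 ± 0.20). Of 6 conduction system markers tested, 4 fell and none rose (1 rose without TAC+GFP replicate 2), with a median of -0.64 and a summed value of 700.1 to 805 in the sham and 358 to 538 in the TAC libraries. Of the 4 that fell, 1 lost its call without each Sham+GFP library in turn or without TAC+GFP replicate 1. Isl1, another of these markers, was listed at 0 in the 7 libraries. The part of conduction tissue in the Irx1 and Irx2 values was not tested. Pknox2, a cofactor of Hox proteins (-1.13 ± 0.13), Sox4 (-1.13 ± 0.19) and Stat5a, which carries cytokine and growth hormone signals (-1.33 ± 0.12) fell too. Srebf1, the master factor of fatty acid synthesis, fell from 1039.7, 951 and 852 to 398, 372, 388 and 399.8 (-1.28 ± 0.08). The retinoid X receptors, obligate partners of the PPAR and thyroid hormone receptors, fell as Rxrg (-0.996 ± 0.11) and Rxra (-0.79 ± 0.07). In the SMAD family, which relays TGF-beta and BMP signals, Smad3 fell (-0.81 ± 0.10) and the inhibitory Smad7 rose (0.95 ± 0.18).

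**Figure D3:**
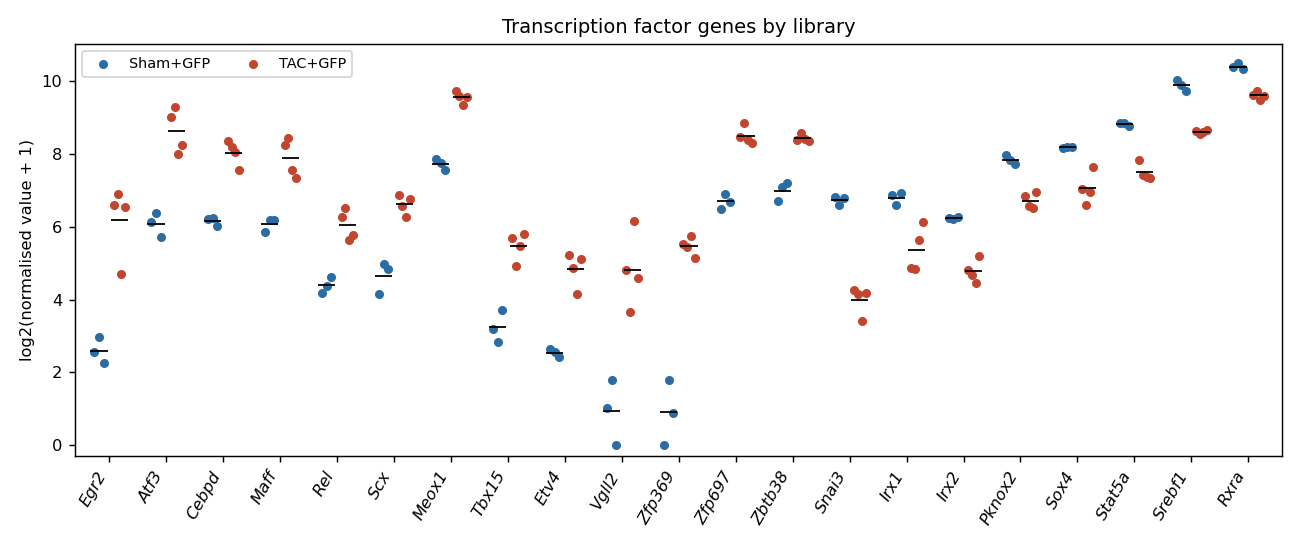
log2(normalised value + 1) of 21 transcription factor genes in each Sham+GFP (blue) and TAC+GFP (red) library; black lines are group means. The genes were picked among those whose groups do not overlap, the first 13 being higher and the last 8 lower in TAC+GFP.

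Secreted factors rose more often than the background. Of 202 tested, 80 (39.6%) rose and 47 (23.3%) fell, and 49 rose at least 2-fold. Without Sham+GFP replicate 2, 31 fell, while the falls among all genes went from 3244 to 2475. Serpins, inhibitors of serine proteases, had 13 of 18 higher, 8 of them at least 2-fold, and 1 lower, which was lost without Sham+GFP replicate 1 or 2 or TAC+GFP replicate 1 or 2 (median 0.88). Serpinb1c rose from 2.02, 3.70 and 3.39 to 72.0, 69.6, 36.3 and 47.3 (3.80 ± 0.32). It belongs to a cluster of close copies in the mouse genome, so that its reads may be shared with neighbours. Of 10 S100 genes, small calcium-binding proteins of which some are released as danger signals, 7 rose and none fell at an adjusted p under 0.05. S100a10, the partner of annexin A2, went from 414, 422 and 360.3 to 849, 1032, 1438 and 809.9 (1.33 ± 0.17).

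Ligands of the epidermal growth factor receptor family moved both ways. Of 8 tested, 3 rose, each at least 2-fold, 1 fell and 4 were not called. Hbegf, a membrane-anchored ligand shed from the cell surface, had 221, 242 and 243 in the sham libraries and 1289, 1378, 616 and 1181 in the TAC libraries (2.18 ± 0.23, adjusted p = 2.59e-05). Nrg1, which signals from endothelium to cardiomyocytes, had 11.6, 8.64 and 9.27 in the sham libraries and 49.7, 45.5, 129 and 56.2 in the TAC libraries (2.59 ± 0.34). Ereg, epiregulin, had 1.01, 0 and 0.834 in the sham libraries and 43.6, 64.9, 11.02 and 20.1 in the TAC libraries (4.25 ± 0.59). TAC+GFP replicate 3 was the lowest TAC library for Hbegf and Ereg and the highest for Nrg1. Egf, the epidermal growth factor, fell from 84.2, 118 and 121 to 83.3, 63.3, 28.99 and 79.2 (-0.84 ± 0.32), and lost its call without any of the 3 Sham+GFP replicates or without TAC+GFP replicate 2. Erbb3, a receptor of neuregulins, fell from 319, 325 and 298 to 187, 150.4, 179.6 and 172 (-0.87 ± 0.10).

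Of 15 tested ligands of the TGF-beta superfamily, 6 rose and 3 fell (1 without Sham+GFP replicate 1 and none without Sham+GFP replicate 2 or 3). Gdf15, a stress cytokine that acts on the brainstem, had values of 5.30, 8.44 and 6.31 in the sham libraries and 163, 146, 59.6 and 292 in the TAC libraries (4.25 ± 0.42, adjusted p = 1.96e-05). Gdf6, a bone morphogenetic protein, was even across the TAC libraries, with 18.5, 9.79 and 14.8 in the sham libraries and 104, 99.5, 95.7 and 94.4 in the TAC libraries (2.73 ± 0.21). Inhba, the activin A subunit, had 12.3, 26.4 and 13.5 in the sham libraries and 69.6, 56.6, 50.5 and 60.8 in the TAC libraries (1.78 ± 0.26). The ligands that fell were Gdf10 (-0.66 ± 0.25), Gdf11 (-0.94 ± 0.29) and Bmp10, and Gdf10 also lost its call without TAC+GFP replicate 1 or 4. Of 11 antagonists of these ligands 6 rose, each at least 2-fold, and 1 fell, which was lost without any of the 3 Sham+GFP replicates or TAC+GFP replicate 1 or 4. Fstl3, which binds activins and myostatin, went from 86.2, 105 and 76.2 to 399, 413, 210.1 and 299 (1.84 ± 0.21). Follistatin, Fst, went from 4.22, 5.04 and 5.28 to 14.8, 20.8, 29.3 and 13.2 (1.75 ± 0.35). On the receptor side 3 of 8 rose (37.5%) and 2 fell (25%), against 24.9% and 25.1% of all genes. Bmpr2 rose (0.91 ± 0.08) and the activin receptor Acvr2b fell (-0.99 ± 0.12). Of 12 WNT ligands and secreted modulators, 5 rose and 2 fell. Sfrp1 had 154, 157 and 209 in the sham libraries and 486, 527, 573 and 374 in the TAC libraries (1.49 ± 0.15). Frzb had 62.1, 77.1 and 67.0 in the sham libraries and 225, 275, 199.9 and 204 in the TAC libraries (1.70 ± 0.14). Sfrp5 fell from 29.2, 46.3 and 48.8 to 7.11, 2.87, 8.29 and 17.1 (-2.28 ± 0.46). The ligand Wnt5a fell (-1.01 ± 0.21), as did the receptors Fzd8 (-1.14 ± 0.19) and Lgr6 (-1.09 ± 0.11). Of 15 Frizzled and WNT coreceptor genes, 4 rose and 4 fell (26.7% each).

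Of 11 fibroblast growth factor genes, 5 fell and 2 rose (1 rose without TAC+GFP replicate 1 or 3). Fgf16, a factor made by adult cardiomyocytes, fell from 266, 216 and 255 to 80.7, 82.3, 102 and 105 (-1.41 ± 0.13). Fgf9 went from 95.5, 106 and 87.2 to 42.3, 43.96, 52.8 and 49.3 (-1.02 ± 0.15). Both were even among the TAC libraries. Fgf6, known from regenerating muscle, rose from 1.03, 4.90 and 0.868 to 42.4, 30.7, 10.6 and 37.0 (3.30 ± 0.55). Fgf23, the bone hormone of phosphate excretion, was listed at 0 in the 3 sham libraries and at 10.03, 14.03, 85.4 and 8.29 in the TAC libraries, with replicate 3 the highest. Of 11 peptide hormone genes 5 rose (3 without Sham+GFP replicate 1) and 5 fell. Stc1, stanniocalcin 1, had 23.3, 15.9 and 21.2 in the sham libraries and 151, 207, 72.2 and 106 in the TAC libraries (2.59 ± 0.31). Edn3, endothelin 3, had 141, 117 and 87.9 in the sham libraries and 382, 418, 668 and 432 in the TAC libraries (2.02 ± 0.20). Penk, the enkephalin precursor, fell from 76.5, 107 and 123.01 to 13.6, 10.2, 16.9 and 39.1 (-2.45 ± 0.38). For Stc1 replicate 3 was the lowest TAC library, and for Edn3 the highest. Of 8 insulin-like growth factor and binding protein genes, 5 rose and 1 fell. Igfbp3, the main carrier of insulin-like growth factors in blood, had 207, 275 and 286 in the sham libraries and 1456, 1953, 569 and 1143 in the TAC libraries (2.20 ± 0.32), with replicate 3 the lowest TAC library. Igfbp7 rose evenly from 1323, 1269.7 and 1218 to 3121, 3243, 2596 and 2689 (1.19 ± 0.08).

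Proteases of the ADAMTS family, which cleave proteoglycans and procollagens, rose in 11 of 19 members and fell in 5 (2 or 3 without Sham+GFP replicate 1 or 2 or TAC+GFP replicate 1). Adamts8 went from 15.3, 16.5 and 19.8 to 108, 126, 89.7 and 135 (2.66 ± 0.19). The related Adamtsl2, a regulator of microfibrils, went from 127, 186 and 156 to 937, 840.3, 823 and 764 (2.43 ± 0.12). Adamts7 had the steepest fall of the family, from 398, 412 and 449 to 124, 91.0, 122 and 168 (-1.76 ± 0.17). Guidance molecules differed by family. Of 10 ephrin, slit and netrin genes, none rose and 5 fell (3 without Sham+GFP replicate 2 or 3), with Efnb3, ephrin B3, lower, from 1492, 1697 and 1680.0 to 729, 691, 669 and 709 (-1.21 ± 0.07). Of 17 semaphorins, 6 rose and 5 fell (3 without Sham+GFP replicate 2 or 3). These are 35.3% and 29.4%, against 24.9% and 25.1% of all genes. Their median was 0.29, with Sema6c lower (-1.84 ± 0.20) and Sema3d higher (2.17 ± 0.29). Il15, a cytokine made in muscle, fell from 293, 311 and 345 to 144, 159, 156 and 158 (-1.03 ± 0.09).

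Receptor genes were near the background by calls alone, with 81 of 293 tested (27.6%) higher and 71 (24.2%) lower. At the 2-fold threshold they were above it, with 35 of 293 higher and 24 lower, against 6.34% and 2.89% of all genes. Lrp8, a lipoprotein and reelin receptor, had 14.1, 7.25 and 6.76 in the sham libraries and 181, 213, 130.1 and 178 in the TAC libraries (4.14 ± 0.25, adjusted p = 1.36e-06). Adgra1, an adhesion receptor known from brain and near 0 in sham hearts, went from 0, 0 and 1.74 to 37.1, 37.2, 23.3 and 32.9 (4.56 ± 0.45). Of 32 interleukin and IL-6 family receptors 10 rose and 4 fell (31.25% and 12.5%, against 24.9% and 25.1% of all genes). At least 2-fold higher were 8 of the 32, against 6.34% of all genes. Of 19 genes of the TNF receptor superfamily 9 rose and 2 fell. Of 14 Toll-like receptor and adaptor genes 5 rose and none fell at an adjusted p under 0.05. Monocyte and neutrophil markers were higher beside them: 3 of 5 tested rose and none fell (1 rose without TAC+GFP replicate 3), with a median of 1.12 and a summed value of 60.7 to 86.2 in the sham and 117 to 266 in the TAC libraries, replicate 3 being the highest. S100a8, one of these markers and also one of the S100 genes above, had 4.04, 4.93 and 5.05 in the sham libraries and 14.9, 20.3, 64.2 and 9.40 in the TAC libraries (1.95 ± 0.54). Of 10 macrophage markers 3 rose (1 without Sham+GFP replicate 3) and 3 fell. The part of these cells in the receptor and S100 values was not tested. Tnfrsf12a, the TWEAK receptor, had 1038, 885 and 686 in the sham libraries and 3238, 3265, 2968 and 3548 in the TAC libraries (1.92 ± 0.12). Tnfrsf11b, the decoy receptor osteoprotegerin, rose from 3.06, 2.45 and 0.851 to 31.0, 29.5, 21.4 and 10.4 (2.92 ± 0.47). Tlr4, the endotoxin receptor, went from 199, 179.5 and 175 to 437, 539, 559 and 552 (1.49 ± 0.10). For these receptors no TAC library reached down to the sham values. Calcrl, which binds adrenomedullin and CGRP (1.59 ± 0.12), and Met, the hepatocyte growth factor receptor (1.67 ± 0.22), rose too.

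Among receptors of axon guidance more genes fell than rose. Of 26 plexin, neuropilin and related genes, 10 fell, 5 of them at least 2-fold, and 2 rose. Plxnb1, a semaphorin 4D receptor, had 1162, 1142 and 1160.3 in the sham libraries and 269, 233, 308 and 285 in the TAC libraries (-2.08 ± 0.09, adjusted p = 2.15e-07). Its sham libraries lay within a narrow range, far above the TAC libraries. Of 8 Eph receptors, which bind ephrins, 3 fell, among them Epha4 (-1.05 ± 0.17) and Ephb1 (-1.10 ± 0.16), and 2 rose, Epha2 (0.57 ± 0.14) and Ephb6 (0.98 ± 0.21). These are 37.5% and 25%, against 25.1% and 24.9% of all genes. Lower values were also found for Ret, which binds ligands of the GDNF family (-1.10 ± 0.14), and Notch3, a receptor of vascular mural cells (-0.97 ± 0.08). Sorcs2, a sorting receptor of neurotrophin signalling, went from 389, 382 and 444 to 105, 105, 47.7 and 90.2 (-2.27 ± 0.24). Among the G-protein-coupled receptors, P2ry1, for extracellular ADP, fell from 353, 391 and 391 to 137, 151, 161 and 183 (-1.26 ± 0.11). Crhr2, the urocortin receptor of the heart, went from 488, 455 and 488 to 177, 144, 206 and 188 (-1.42 ± 0.12). The sphingosine 1-phosphate receptors moved apart. S1pr3 went from 524, 545 and 518 down to 259, 204, 208 and 209 (-1.27 ± 0.10). S1pr1 went from 894, 889.7 and 795 up to 1839, 2051, 1319.6 and 1149 (0.85 ± 0.17). Chrna2, a nicotinic receptor subunit, fell from 124, 102 and 95.7 to 28.1, 42.5, 8.46 and 15.5 (-2.35 ± 0.42).

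**Figure D4:**
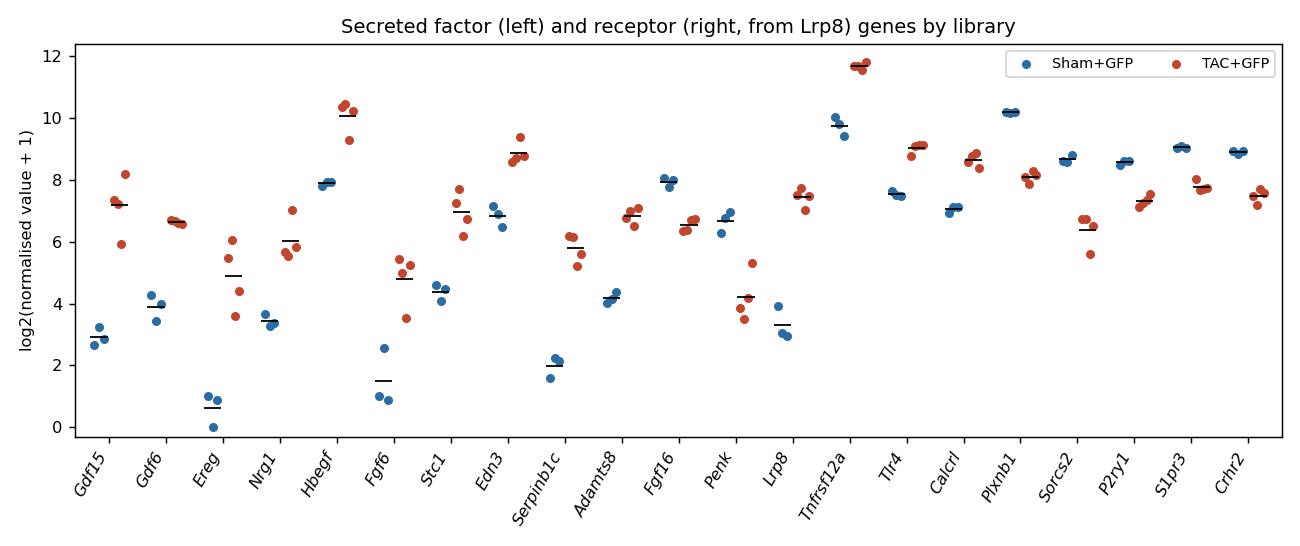
log2(normalised value + 1) of 12 secreted factor genes (Gdf15 to Penk) and 9 receptor genes (Lrp8 to Crhr2) in each Sham+GFP (blue) and TAC+GFP (red) library; black lines are group means. The genes were picked among those whose groups do not overlap. Fgf16, Penk, Plxnb1, Sorcs2, P2ry1, S1pr3 and Crhr2 are lower and the others higher in TAC+GFP.

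The cytoskeleton rose more often than it fell, 92 of 252 tested genes (36.5%) against 41 (16.3%). Kif5b, the heavy chain of conventional kinesin that carries cargo along microtubules, went from 801, 822 and 794 to 3417, 4082, 4155 and 3391 (2.22 ± 0.08, adjusted p = 4.29e-08), the steepest difference of the motor genes. In all, 18 of 46 kinesins and dyneins rose and 6 fell (3 without Sham+GFP replicate 2). The tubulin genes changed in both directions: Tuba4a, an alpha tubulin, fell from 18630.1, 16999 and 15002 to 7876, 6948, 8254 and 7321 (-1.15 ± 0.08). Tubb3 rose from 24.0, 13.3 and 14.9 to 102, 94.4, 82.3 and 112 (2.46 ± 0.22). Tubb2b rose from 42.4, 40.0 and 31.2 to 131, 161, 70.6 and 112 (1.57 ± 0.25). Of 15 intermediate filament genes 8 rose and none fell, among them the keratins Krt18, with 6.23, 8.56 and 6.10 in the sham libraries and 42.2, 50.3, 64.4 and 62.4 in the TAC libraries (2.80 ± 0.24), and Krt80 (1.79 ± 0.13). LIM-domain genes rose in 16 of 31 cases and fell in 6: Fhl1, a stretch-sensing partner of titin, went from 2052, 1965 and 1837 to 7421, 8518, 4301 and 6566 (1.74 ± 0.18), and Crip2 fell (-0.68 ± 0.07). Actin regulators rose in 29 of 61 cases and fell in 8, with Enah, which promotes filament growth, higher by 1.41 ± 0.08. The unconventional myosin Myo5a rose (1.04 ± 0.11), and Cdh3, P-cadherin, went from 1.03, 1.22 and 2.60 to 20.8, 20.3, 24.5 and 23.7 (3.20 ± 0.36).

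Signalling genes inside the cell included several regulators of growth. Of 11 PIM, GADD45 and p21 family genes, 2 rose and 5 fell (3 without Sham+GFP replicate 3 or TAC+GFP replicate 4), with a median of -0.25. Cdkn1a, the cell cycle inhibitor p21, had 341, 258 and 239 in the sham libraries and 1593, 1861, 996 and 684 in the TAC libraries (2.11 ± 0.29). The related Cdkn1c fell from 179, 186 and 171 to 99.6, 79.4, 85.3 and 75.05 (-1.08 ± 0.12), and the stress gene Gadd45g rose (1.77 ± 0.19). Its relative Gadd45a (-0.80 ± 0.18) and the kinase Pim3 (-0.80 ± 0.18) fell. Feedback inhibitors of growth factor and cytokine signals rose in 8 of 16 cases and fell in 1 (2 without TAC+GFP replicate 4), with Socs4 at 7.11, 14.7 and 21.1 in the sham libraries and 54.9, 59.1, 66.5 and 49.3 in the TAC libraries (2.04 ± 0.31) and Spry1 higher by 1.02 ± 0.17. Of 10 annexins, calcium-dependent membrane-binding proteins, 7 rose and 2 fell, and Anxa8 went from 11.2, 5.16 and 10.2 to 36.05, 36.8, 87.7 and 46.4 (2.38 ± 0.36). Camk2a, a calcium/calmodulin-dependent kinase, fell from 995, 1000.1 and 974 to 506, 455, 432 and 403 (-1.14 ± 0.08). Pde4a, a cyclic AMP phosphodiesterase, went from 1570.0, 1448 and 1386 to 724, 589, 692 and 639 (-1.15 ± 0.08). Every TAC library was far below every sham library for both. Ppp1r3c, which targets a phosphatase to glycogen, rose from 1554, 1358 and 1336 to 3869, 4039, 3730.3 and 3603 (1.43 ± 0.07), and Ppp1r15a, which reverses the translation block of the stress response, by 1.43 ± 0.13. Rnd1, an atypical small GTPase, rose (1.85 ± 0.31), and Rhot2, a small GTPase that links mitochondria to motors, fell from 3533, 3602 and 3376 to 1850.3, 1607, 2074 and 1772 (-0.95 ± 0.08).

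Transport genes fell more often than they rose, 96 of 260 (36.9%) against 60 (23.1%). Of the 38 carriers of the inner mitochondrial membrane, 20 fell and 5 rose (3 without Sham+GFP replicate 2 or 3 or TAC+GFP replicate 1). Slc25a22, a glutamate carrier, went from 1055, 1013 and 925 to 309, 286, 218 and 318 (-1.83 ± 0.12). Slc25a42, a coenzyme A carrier, went from 1153, 1259 and 1267 to 428, 406, 369.9 and 455 (-1.56 ± 0.08). ABC transporters fell in 18 of 36 cases and rose in 5, with Abcc9, the sulfonylurea receptor subunit of ATP-sensitive potassium channels, at 3983, 4566 and 4872 in the sham libraries and 2358, 2293, 2240.2 and 2053 in the TAC libraries (-0.997 ± 0.08). Slc22a5, the carnitine transporter (-1.15 ± 0.11), and Slc22a3, which clears catecholamines outside nerve endings (-1.62 ± 0.20), fell. The lactate exporter Slc16a3 rose from 23.6, 22.4 and 17.2 to 116, 170.2, 95.3 and 81.2 (2.36 ± 0.24). The glucose transporter Slc2a12 fell from 161, 154 and 164 to 62.2, 51.6, 43.6 and 64.6 (-1.52 ± 0.15). Among the channels, Clcn1, the chloride channel of the muscle membrane, had 159.6, 155 and 174 in the sham libraries and 27.0, 21.1, 21.3 and 35.6 in the TAC libraries (-2.62 ± 0.19, adjusted p = 3.42e-06). Clic5, a chloride intracellular channel protein, rose from 4989, 4372 and 4214 to 11249.9, 12292, 11375 and 12348 (1.39 ± 0.07). For both the groups stood well apart. Of 5 aquaporins 3 fell and 1 rose (2 without TAC+GFP replicate 3), with the water channel Aqp4 lower, from 61.4, 95.3 and 90.0 to 13.8, 4.63, 9.88 and 15.7 (-2.88 ± 0.36), the glycerol channel Aqp7 lower (-1.81 ± 0.12) and Aqp8 higher, from 48.5, 34.4 and 42.4 to 210.5, 218, 108 and 278 (2.19 ± 0.27).

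Of 433 enzyme genes tested, 81 (18.7%) rose and 28.4% fell, against 24.9% and 25.1% of all genes, and the families differed. No glutathione S-transferase gene rose at an adjusted p under 0.05 and 10 of 21 fell (median -0.50), among them Gstk1, the mitochondrial and peroxisomal form, from 1107, 1071 and 1097 to 504, 379.9, 468 and 512 (-1.24 ± 0.10), and Gstm7 (-1.01 ± 0.08), which has close copies. Of 17 aldehyde dehydrogenases 9 fell and 1 rose (2 without TAC+GFP replicate 4), with Aldh5a1 at -1.07 ± 0.08. Of 33 triglyceride storage and lipolysis genes 18 fell and 1 rose (2 without TAC+GFP replicate 3 or 4): Dgat2, which makes triglyceride, went from 5985, 6737 and 6867 to 3133, 3069, 2710.5 and 2807 (-1.16 ± 0.07). The hormone-sensitive lipase Lipe went from 1174, 1239 and 1061 to 632, 593, 542 and 471 (-1.05 ± 0.10). Cholesterol synthesis genes were near the background on the lower side only, with 5 of 21 lower (23.8%, against 25.1% of all genes). None was called higher, against 24.9% of all genes. Fdft1, squalene synthase, was at -0.96 ± 0.07. Polyamine and arginine genes rose in 10 of 16 cases and fell in 2 (1 without any of the Sham+GFP replicates), including Sat1, the rate-limiting enzyme of polyamine breakdown, from 178, 169 and 195 to 406, 479, 399.9 and 348 (1.17 ± 0.11), and the antizyme inhibitor Azin1 (0.98 ± 0.09). Of 34 genes of purine and pyrimidine metabolism 11 rose (32.4%) and 10 fell (29.4%), with a median of -0.11. Uck2, a uridine-cytidine kinase, had 365, 326 and 280.1 in the sham libraries and 1458, 1535, 659 and 1329.7 in the TAC libraries (1.87 ± 0.24). Nt5e, which makes adenosine outside the cell, had 135, 172 and 152 in the sham libraries and 669, 745, 537 and 459.8 in the TAC libraries (1.95 ± 0.15). Replicate 3 was the lowest TAC library for Uck2. Cad, which begins pyrimidine synthesis, fell from 315, 349.7 and 297 to 179, 125, 135 and 167 (-1.09 ± 0.13). The hypoxia-responsive carbonic anhydrase Car9 rose from 5.16, 1.22 and 3.47 to 34.4, 52.8, 17.0 and 19.6 (2.88 ± 0.48). In eicosanoid synthesis 6 of 25 genes rose (24%) and 8 fell (32%). The phospholipase Pla2g5 fell from 479, 529 and 562 to 159.5, 129.5, 152 and 235 (-1.66 ± 0.17). Cyclooxygenase 2, Ptgs2, rose from 8.19, 13.3 and 9.27 to 42.9, 49.6, 31.5 and 51.4 (1.99 ± 0.26).

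Markers of cell types were checked beside these results. Of 10 ventricular cardiomyocyte markers, such as Myh6 and Ttn, 5 fell and 1 rose (summed value 1032850.0 to 1073860.0 in the sham and 631005 to 727672 in the TAC libraries). Of the 5 that fell, 1 lost its call without each Sham+GFP library in turn or without TAC+GFP replicate 1. None of the lung epithelium markers reached the level for testing. Epicardial and mesothelial markers rose, 6 of 9, and none fell (summed value 215 to 263 in the sham and 416 to 669 in the TAC libraries). Of the 6 that rose, 1 lost its call without each Sham+GFP library in turn or without TAC+GFP replicate 3 or 4. Wt1 went from 31.7, 28.3 and 36.4 to 72.4, 88.9, 59.3 and 45.2 (0.99 ± 0.23). Msln went from 47.7, 47.3 and 46.9 to 116, 139, 225 and 137 (1.64 ± 0.20). Krt18 is itself one of these markers, and their part in the keratin result was not tested. Of 9 fibroblast markers 5 rose and 1 fell, a median of 0.37 (summed value 24741 to 28765 in the sham and 26148 to 31865 in the TAC libraries). Col1a1, a chain of type I collagen, went from 1628, 1449 and 1349 to 3497, 3802, 2624 and 2183 (1.01 ± 0.16), and the one that fell was Gsn, gelsolin (-0.44 ± 0.09). The part of fibroblasts in the matrix and secreted factor values was not tested. Of 8 endothelial markers 4 fell and 1 rose (summed value 19249.7 to 20604 in the sham and 16272 to 19099.9 in the TAC libraries), and 2 fell without Sham+GFP replicate 1 or 2 or TAC+GFP replicate 3 or 4. No pericyte marker rose at an adjusted p under 0.05 and 6 of 7 fell (summed value 15401 to 16360.5 in the sham and 10016 to 11841 in the TAC libraries), which include Abcc9 and Notch3 above. Of these 6, 1 lost its call without each Sham+GFP library in turn or without TAC+GFP replicate 1. Of 7 smooth muscle markers 4 fell (2 without Sham+GFP replicate 2), among them Myh11 (-1.11 ± 0.15) and Acta2 (-1.02 ± 0.08), and 1 rose (2 without TAC+GFP replicate 4). The list had a summed value of 32831 to 34589 in the sham and 37359 to 49115 in the TAC libraries, most of it from Des, desmin, which cardiomyocytes make as well and which rose from 29484, 29876 and 28332 to 45236, 45808, 34290.1 and 40536 (0.50 ± 0.10). Of 6 Schwann cell and nerve markers 3 fell, while 1 rose only without TAC+GFP replicate 3 (summed value 209 to 252 in the sham and 143 to 166 in the TAC libraries), with Sox10 at 32.6, 48.2 and 25.8 in the sham libraries and 7.12, 8.55, 10.5 and 11.03 in the TAC libraries, beside the lower values of guidance receptors. Their part in those values was not tested. Of 8 atrial markers 2 rose (1 without Sham+GFP replicate 1 or 2 or TAC+GFP replicate 4) and 3 fell (summed value 11189 to 16129 in the sham and 21616 to 24635 in the TAC libraries), and their levels varied among libraries of the same group. Myl7, the atrial light chain, had 154, 779 and 1215 in the sham libraries and 597, 278, 847 and 1411 in the TAC libraries. Sln, sarcolipin, had 41.5, 248 and 333 in the sham libraries and 248.6, 144, 377 and 572 in the TAC libraries. For both the groups overlapped. Bmp10, an atrial growth factor, had 50.1, 81.8 and 106 in the sham libraries and 12.7, 1.85, 0 and 76.5 in the TAC libraries. Sbk2, an atrial kinase, had 64.4, 88.6 and 103 in the sham libraries and 12.5, 12.2, 8.49 and 28.2 in the TAC libraries (-2.51 ± 0.35). The call of Bmp10 rests on single libraries: without TAC+GFP replicate 2, or without any of the 3 Sham+GFP replicates, it did not pass. TAC+GFP replicate 4 was the highest TAC library for these genes and for Penk and Sfrp5 above, and the part of atrial tissue in those values was not tested. Globins, carried by red cells, went from 0.131% to 0.471% of the total (exact permutation p = 0.0286), and Hbb-b1 had 6428, 7250.3 and 8103 in the sham libraries and 27887, 31990.1, 49834 and 23048 in the TAC libraries. Its reads can be shared with near-identical globin copies.

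The TAC hearts were not alike. The median SD of log2 values over genes was 0.155 among the 4 TAC libraries and 0.105 among the 3 sham libraries. Nmrk2, which makes NAD from nicotinamide riboside, was at 38.8, 54.4 and 38.6 in the sham libraries and 2548, 3141, 330.1 and 4327 in the TAC libraries (5.37 ± 0.69), so replicate 3 held far less than the other TAC hearts and still more than any sham heart. Without that replicate its difference was 6.20. The heat shock gene Hspa1b, which has a near-identical copy, had 36.9, 34.7 and 25.1 in the sham libraries and 211, 191, 30.2 and 239 in the TAC libraries (2.01 ± 0.58), with replicate 3 within the sham range. Its difference was 2.70 without TAC+GFP replicate 3, and the call was lost without Sham+GFP replicate 3. Adamts4, a proteoglycan-cleaving protease, had 152, 196, 27.6 and 73.1 in the TAC libraries against 16.5, 17.1 and 13.9 in the sham libraries. Fos was at 227, 187 and 151 in the sham libraries and 257, 297, 26.9 and 147 in the TAC libraries, with replicate 3 the lowest library of all, and did not differ between groups beyond their spread (-0.49 ± 0.65, adjusted p = 0.558). Hp, haptoglobin, had 33.6, 52.97, 227 and 187 in the TAC libraries and 20.8, 24.2 and 16.5 in the sham libraries. Rrm2, a subunit of the enzyme that makes deoxyribonucleotides in dividing cells, was at 47.8, 37.8, 60.5 and 289 against 31.4, 32.1 and 18.8, with replicate 4 alone far above the rest (1.46 ± 0.57, adjusted p = 0.0515). No label gives the degree of constriction or the function of single hearts, so these differences could not be set against them.

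**Figure D5:**
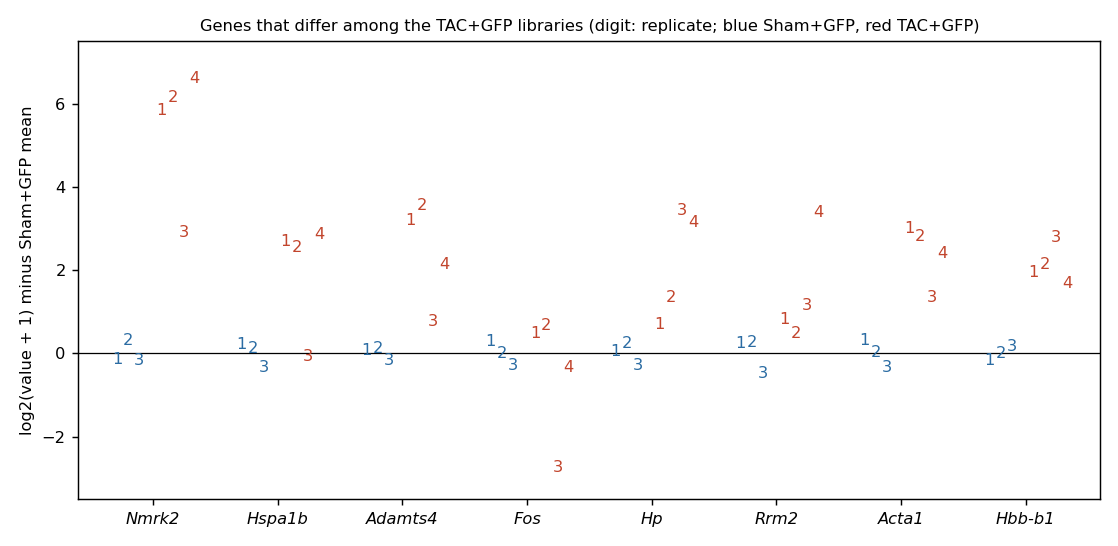
Difference of log2(value + 1) from the Sham+GFP mean for 8 genes, with each library drawn as its replicate number (blue Sham+GFP, red TAC+GFP). TAC+GFP replicate 3 is the lowest TAC library for Nmrk2, Hspa1b, Adamts4, Fos and Acta1 and the highest for Hp and Hbb-b1, and replicate 4 stands alone for Rrm2.

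The same surgery under the JP2NT virus gave fewer calls, in a fit unlike the one above. There, 4243 of 13194 genes (32.2%) differed between TAC and sham, after joint rescaling of the 4 groups. Replicates 1 and 2 of Sham+JP2NT had a variance 1.20 times that of counting alone, and entered the fit as their mean. This left fewer sham samples than under GFP, on which the number of calls and the overlap depend. With all 14 libraries entered separately, 5370 genes differed under JP2NT. Under GFP, 5105 to 5398 differed with 1 sham library left out, against 6461 with all. Without Sham+JP2NT replicate 3 a single sham sample was left, so the count of that fit is not read here. Of 12918 genes tested under both viruses, 6456 were called under GFP and 4215 under JP2NT. The 3548 called under both in the same direction were 55.0% of the first and 84.2% of the second, and 4 were called in opposite directions. These comparisons share no library. The difference between the GFP and JP2NT differences passed the test for 9 genes (0.0682%), and for 1490 at an unadjusted p under 0.05. Mylk4 fell by 2.03 under GFP and its difference under JP2NT was -1.18 (difference of the differences -0.87, adjusted p = 0.00917). Eif4ebp1, a brake on cap-dependent translation, rose under GFP, from 682, 705 and 783 to 1388, 1379, 1131 and 1264 (0.83 ± 0.08), against -0.25 under JP2NT (difference of the differences 1.07, adjusted p = 0.00856). Hist1h1c, a linker histone, had 0.58 under GFP and -0.29 under JP2NT (0.86, adjusted p = 0.0464). Igfbp3, at 2.20 under GFP and 0.05 under JP2NT, did not pass this test (adjusted p = 0.118). The count of 9 is unstable: it was 3 to 5 with any 1 of the Sham+GFP replicates left out and 4 without TAC+GFP replicate 2. It was 56 without TAC+GFP replicate 3, 18 without TAC+GFP replicate 4 and 49 without TAC+JP2NT replicate 3. With all 14 libraries entered separately it was 111, and 220 with the replicate block added.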

How the data were processed

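Paired-end libraries of polyadenylated RNA (stranded kit) were sequenced on an Illumina NovaSeq. FastQC 1.0.0, STAR 2.6.1a, Salmon and build mm10 are named in the submitters' processing notes. No source used here states the annotation or the scaling software. The deposited values are gene-level and are held here as a signal scaled by the authors. Most are not whole multiples of 1 step per library, so a single factor per library does not describe them. The authors' scale therefore sets every fold. Of 24972 rows, 26 with repeated names or names turned into dates were left out.

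Values were compared as log2(value + 1) with limma 3.58.1 in R 4.3.3 (linear model, moderated variances with a trend, 5 residual and 5.76 prior degrees of freedom), with Benjamini-Hochberg adjustment over all 12925 genes. A count model, which the values do not allow, was not used. The comparison with JP2NT hearts used all 4 groups after joint rescaling by trimmed means of M-values. In simulated data with 12580 genes, 100 genes were changed by 0.5 and 100 by 1 (log2), with the same dispersion for all genes. There, 35% of changes of 0.5 and 96% of changes of 1 were recovered, and 6.43% of calls were false. Far fewer genes changed there than the 6461 called in the data, so these rates cannot be carried over to this comparison. Shares of the summed value were compared by two-sided exact permutation tests.

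The members and lists were chosen with earlier results of these data known. Named genes are those of each list with the steepest called difference and no overlap between groups (up to 3 each way, higher group mean of at least 10), up to 15 each way outside the lists (mean of at least 100), the 20 most abundant and 20 with the largest shift in share, the 10 nearest to no change among the 200 most abundant, the 10 with the widest range in TAC libraries, and cell type markers. The text gives a part of these, picked with their values known. Alternatives changed the pseudocount, the filter on low values, the scaling, the variance model, the replicate block and the libraries used. A few items are not reported here.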

Additional observations from a re-analysis of the deposited data

Results flagged for a closer look

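In 10 of the 193 genes named, 1 of the 4 TAC+GFP libraries lay apart from the other 3 by more than Dixon's 95% limit, which chance alone exceeds in about 1 of 20 groups. In none of the shares of the summed value did a library lie apart. Replicate 3 was the library apart for 6 genes: Xirp2 at 25476, Egr2 at 24.9, Snai3 at 9.58, Uck2 at 659, Acot1 at 15.7 and Hspa1b at 30.2, each below the other TAC libraries. Replicate 1 was the lowest TAC library for Tlr4 (437) and Xpo4 (89.4) and the highest for S1pr3 (259). Replicate 4 was the highest TAC library for Ret (53.9). For the genes other than Hspa1b the groups remained apart with this library included.

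The TAC difference itself differed between the viruses for 3 of the genes named. It was lower under GFP than under JP2NT by -0.87 for Mylk4, and higher under GFP by 1.07 for Eif4ebp1 and by 0.86 for Hist1h1c (limma, adjusted p = 0.00917, 0.00856 and 0.0464). Under JP2NT the differences of Eif4ebp1 and Hist1h1c, -0.25 and -0.29, were not called.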

How the results depend on the processing

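Under the alternatives run, 5105 to 6787 genes differed between TAC+GFP and Sham+GFP against 6461 (5105 to 6547 when 1 library at a time was left out). None of the called genes among the 193 named changed direction. Direction was not followed for genes without a call. The difference of Fos, for example, ran from -0.87 to 0.27 when 1 library at a time was left out. Of the 193 genes named, Bmp10 lost its call without each Sham+GFP library in turn, without TAC+GFP replicate 2, with TAC+GFP replicates 1 and 2 averaged, in the fit of all 4 groups and with robust variances, which also ended the calls of Hspa1b and Hp. Hspa1b lost its call without Sham+GFP replicate 3 as well. Egf lost its call in 8 settings, among them each Sham+GFP library left out, TAC+GFP replicate 2 left out and both scalings by summed value. Gdf10 lost its call in 12 settings, among them both scalings by summed value, a pseudocount of 0.5 and the replicate block. Gdf11 lost its call without each Sham+GFP library in turn, and S100a8 in the fit of all 4 groups. Rrm2, not called, was called in 9 settings. The cause of these changes was not tested. The replicate numbers do not pair the libraries (correlations of same-numbered deviations -0.001, -0.03 and 0.07). With the replicate block, 6485 genes differed under GFP. In a fit of all 14 libraries without averaging, 5370 genes differed under JP2NT and 111 between the viruses, and with the replicate block 5855 and 220, against 4243 and 9 in the fit reported. Leaving out 1 library at a time gave 1941 to 5003 genes under JP2NT and 1 to 56 between the viruses. Both lowest values came from the fit without Sham+JP2NT replicate 3. It left a single sham sample, so these values do not measure how the results depend on that library. With any other library left out, the lowest values were 3387 under JP2NT and 3 between the viruses. The 10 most abundant genes changed by -2.12 percentage points without Myh6 and Myh7 (exact permutation p = 0.0286). This alternative was added after the data were seen and removes the gene with the largest loss. Mitochondrially encoded transcripts are not analysed here, so the shares without them could not be given. Genes near 1 read have differences that depend on the pseudocount. Changes of 0.5 (log2) were often missed in the simulated data, in which far fewer genes changed than were called here.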
